A study of Mus musculus with 3 samples.

Results

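The genes described here encode the nuclear-encoded subunits of the oxidative phosphorylation complexes. Members were chosen by mouse gene symbol, through the transcript accession of each array probe, as symbols beginning with Ndufa, Ndufb, Ndufc, Ndufs, Ndufv, Uqcr, Cox4, Cox5, Cox6, Cox7, Cox8 or Atp5, together with Sdha, Sdhb, Sdhc, Sdhd and Cyc1, without the Ndufaf factors and symbols marked as pseudogenes by -ps. Of 92 symbols in the gene table that met this rule, 85 had a probe, among 22908 named genes on the arrays. Cox5b, Ndufb1, Ndufb4b and Ndufb4c, which are protein coding, had no matched probe, nor did the pseudogenes Cox6c2, Ndufs6b and Ndufa11b. The members comprised 36 genes of complex I, 4 of complex II, 9 of complex III, 17 of complex IV, 17 of complex V, and the pair Ndufa4 and Ndufa4l2.

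Oxidative phosphorylation is the process by which mitochondria make most of the ATP of a cell. Complexes I and II pass electrons from NADH and succinate to coenzyme Q, complex III passes them to cytochrome c, and complex IV passes them to oxygen. Complexes I, III and IV pump protons across the inner membrane, and complex V, the ATP synthase, uses the returning protons to make ATP. Most subunits are encoded in the nucleus and imported, whereas a small core set is encoded by mitochondrial DNA, and liver cells depend on this pathway for their energy.

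Hepa1c1c7, a mouse hepatoma cell line, was transfected with the Empty vector (pCMV6-Kan/Neo), a vector carrying the Mst1r open reading frame or a vector carrying the Slpi open reading frame. Mst1r is a receptor tyrosine kinase and Slpi is a secreted inhibitor of serine proteases, and the vectors were compared to examine expression changes on overexpression of either gene. All 3 groups were the same transfected line, collected about a day after transfection, and each group was a single RNA sample on 1 single-colour array. No difference between vectors could therefore be tested, and no statement below has a replicate check. The value in each sample is the processed signal, a spot intensity after background subtraction that is not scaled between arrays. A log2 difference is the difference of log2 processed signals after subtraction of the 75th percentile of each array, and a gene is represented by its brightest probe. The error after a log2 difference is the spot error, the SD expected from the scatter among repeated spots of the same probe on an array at that signal, and covers no variation between cultures.

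The 75th percentile of the signal was 268, 229 and 254 on the Empty, Mst1r and Slpi vector arrays, and between 46.7% and 48.5% of the probes were well above background by the scanner software's flag. A gene is called detected when its probe was well above background on all 3 arrays. The transfected genes did not stand out on their own arrays. The Mst1r probe was at background throughout, with signals of 4.15, 4.08 and 3.70 with the Empty, Mst1r and Slpi vectors, and the Slpi signal was 6459, 3843 and 6680, so the groups are named here as the arrays were labelled. Whether these probes lie within the cloned reading frames was not tested, and the study's PCR measurements of the transfected cells were not analysed here. Among 8 markers of the hepatocyte lineage, 4 were detected, including Afp, the fetal albumin-like protein, and Trf, transferrin, while Hnf4a, a transcription factor of hepatocytes, was at background throughout. Among 8 markers of other cell types, 6 were detected. These were Cd68 of macrophages, Pecam1 of endothelium, Col1a1 and Des of fibroblasts and stellate cells, and Krt19 and Sox9 of bile duct. Ptprc of leukocytes and Cdh5, also of endothelium, were not detected. Pecam1 was dim, at 35.9, 32.1 and 24.1 with the Empty, Mst1r and Slpi vectors, and so was Krt19, at 53.3, 28.8 and 59.2. All samples were a single cell line, so a detected marker does not show that cells of its type were present. In bulk RNA, fewer expressing cells and less RNA per cell cannot be told apart.

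The promoters of the members are shown first because they are rich in CpG dinucleotides and differ between isoforms. RefSeq promoters (GRCm38.p6, 250 bases before to 50 bases after the start) were matched for 68 of the 85 members, which gave 73 promoters. The median number of CpG dinucleotides in the 300 bases was 19 (range 2 to 43), against 7 over all 32851 promoters. Complex IV uses tissue-specific isoforms for several subunits. Cox8a is the form found in most tissues and Cox8b is a form of heart and skeletal muscle. Their promoters, both on the minus strand, at chr19:7217567-7217866 for Cox8a and chr7:140900397-140900696 for Cox8b, are printed with CpG dinucleotides in capitals and hold 19 and 2 of them.
Cox8a: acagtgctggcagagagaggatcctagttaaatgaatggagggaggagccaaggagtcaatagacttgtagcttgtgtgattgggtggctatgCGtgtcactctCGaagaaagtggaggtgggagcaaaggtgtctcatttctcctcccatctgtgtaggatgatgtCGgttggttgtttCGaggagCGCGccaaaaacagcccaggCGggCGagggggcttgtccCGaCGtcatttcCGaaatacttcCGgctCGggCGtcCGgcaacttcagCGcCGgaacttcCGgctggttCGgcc
Cox8b: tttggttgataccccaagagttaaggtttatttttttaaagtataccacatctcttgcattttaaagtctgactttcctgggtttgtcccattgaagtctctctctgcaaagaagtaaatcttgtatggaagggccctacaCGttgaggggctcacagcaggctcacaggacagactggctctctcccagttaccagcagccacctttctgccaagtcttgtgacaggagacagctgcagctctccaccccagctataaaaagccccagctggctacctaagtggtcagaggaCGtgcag
On the arrays, the Cox8a probe gave a signal of 54158 with the Empty vector, 47282 with the Mst1r vector and 53143 with the Slpi vector. The Cox8b signal was 4.79, 4.91 and 4.22, which the flag did not place above background anywhere. Levels of different probes cannot be set against each other, and the statement for each gene is only whether its own probe was detected.

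Motifs known from promoters of respiratory genes were counted on both strands. The NRF1 motif GCGCANGCG, or CGCNTGCGC on the other strand, was found in 28.8% of the 73 member promoters and in 6.25% of all promoters. The ETS motif CCGGAAG, or CTTCCGG on the other strand, was found in 23.3% and 8.86%, and the YY1 motif AAGATGGC, or GCCATCTT on the other strand, in 13.7% and 2.75%. None of the 3 motifs contains another, and at least 1 of the 3 motifs was present in 40 of the 73 member promoters (54.8%) against 5242 of all 32851. The NRF1 and ETS motifs contain CpG dinucleotides, in which the member promoters are rich. The shares were not compared at matched CpG content. A match is a description of the letters and not a bound site. Cox6a1, the form of subunit VIa found in most tissues, is printed with its 2 stretches of NRF1 match in capitals, the first of which matches on both strands (chr5:115348909-115349208, minus strand of the chromosome).
Cox6a1: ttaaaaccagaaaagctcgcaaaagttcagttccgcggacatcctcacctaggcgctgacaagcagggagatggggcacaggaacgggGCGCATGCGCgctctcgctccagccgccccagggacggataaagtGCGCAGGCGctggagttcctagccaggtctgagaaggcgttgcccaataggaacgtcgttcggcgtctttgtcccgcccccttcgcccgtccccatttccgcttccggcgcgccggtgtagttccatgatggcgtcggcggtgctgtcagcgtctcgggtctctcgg
The Cox6a1 signal was 107002, 90608 and 105245 with the Empty, Mst1r and Slpi vectors, and its log2 difference from the Empty vector was -0.01 ± 0.08 with Mst1r and 0.05 ± 0.08 with Slpi. Both differences were within the spot error.

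Nearly all members were detected, and the differences between the vectors were small. Of the 85 members, 81 were detected on all 3 arrays, with signals between 73.4 and 110609. All members of complexes I, II, III and V were detected. The 4 others were Cox6a2, Cox8b and Cox8c of complex IV, and Ndufa4l2. No detected member was 2-fold apart in any of the 3 comparisons. Of the 19249 detected features, 2.91% were at least 2-fold higher or lower with Mst1r than with the Empty vector. The share was 1.32% with Slpi against the Empty vector, and 2.66% with Mst1r against Slpi. Of the 81 detected members, 73 had a mean log2 signal over 12. Among the 3420 detected features that bright, the shares were only 0.41%, 0.26% and 0.35%, in the same order.

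**Figure D1:**
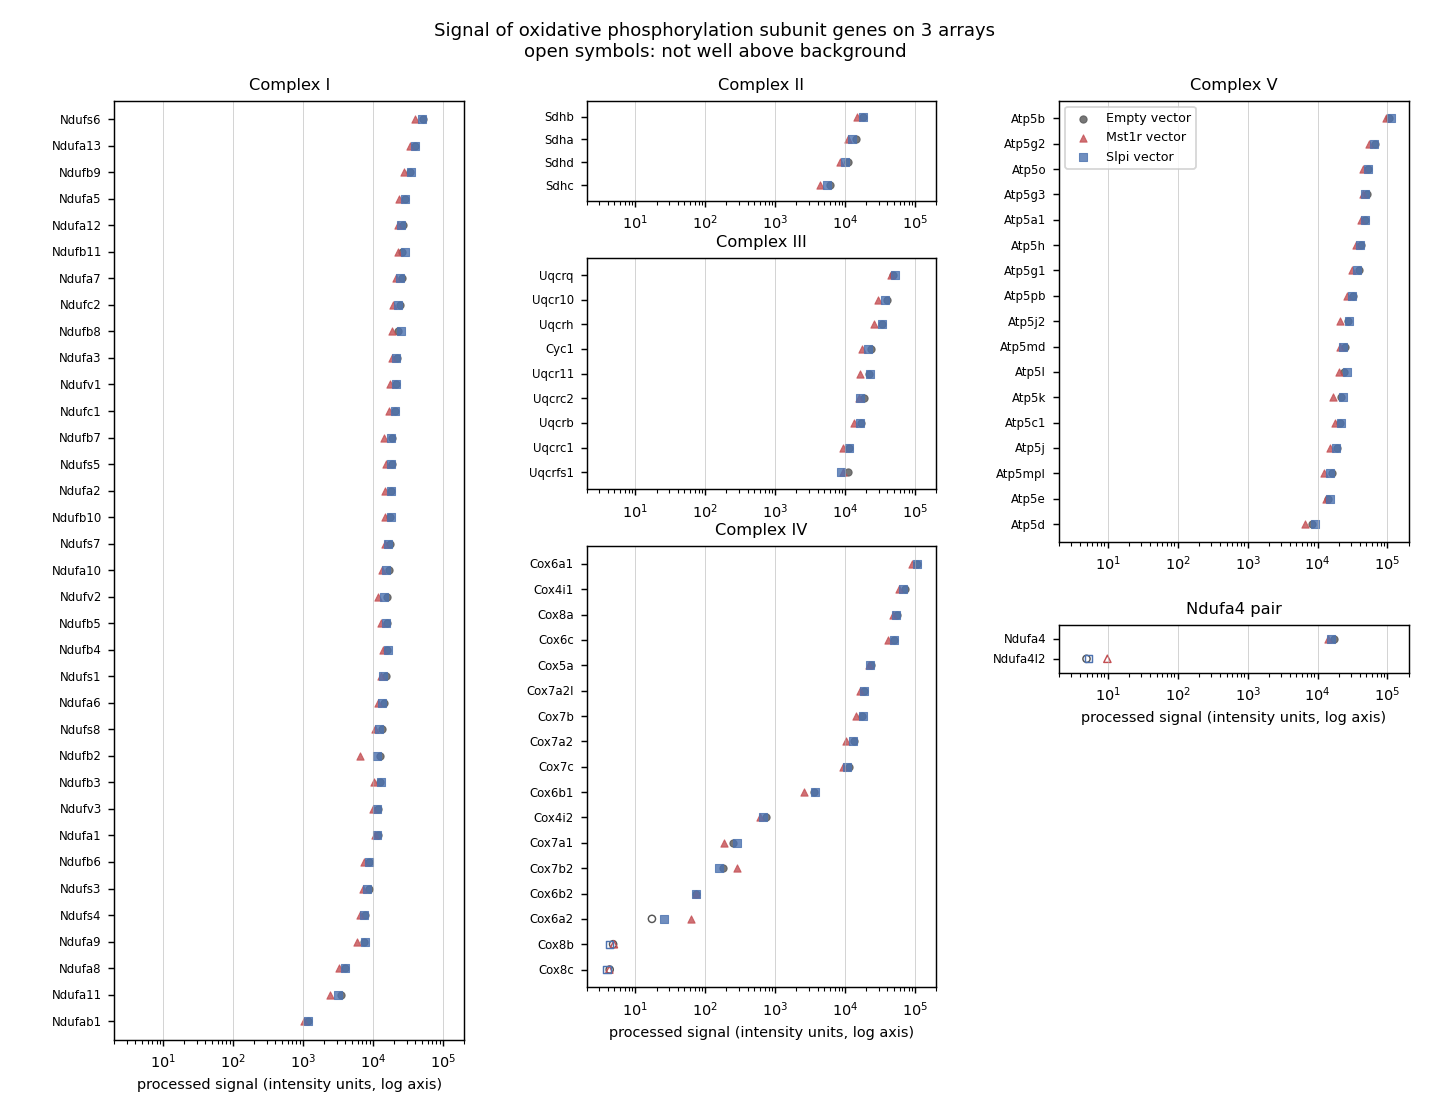
Processed signal (intensity units, log axis) of 84 of the 85 members on the Empty vector (circles), Mst1r vector (triangles) and Slpi vector (squares) arrays, by complex and in order of the signal with the Empty vector, with open symbols where a probe was not well above background. Detected members of complexes I, II, III and V lie at 1019 or above, while the tissue isoforms of complex IV and Ndufa4l2 reach down to the background. Signals are not scaled between arrays, and the order of genes is an order of probes, not of RNA amounts.

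With the Mst1r vector, the median log2 difference of the 81 detected members from the Empty vector was -0.04, and the median over all detected features was -0.03. The difference was under 0 in 62 of 81 members (76.5%), where 55.4% of all detected features were under 0. Of the members, 73 had a mean log2 signal over 12, and among these bright members 57 were under 0 (78.1%) while 63.8% of the 3420 bright features were. At a 1.2-fold difference, 1 member was higher and 2 were lower, where 15% of all detected features were higher and 12.9% were lower, 27.9% together, and 10.4% of the bright features were either. Among the bright members only Ndufb2 passed. A difference beyond 2 spot errors was found in 8 of 81 members, where the percentage over all detected features was 20. The interquartile range was 0.096 over the members and 0.29 over all detected features, and at matched brightness it was 0.090 over the bright members and 0.16 over the bright features. They were lowest on the Mst1r array in 56 of 81 cases after scaling (69.1%), against 43.9% of all detected features.

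With the Slpi vector, the median log2 difference of the members from the Empty vector was 0.04, while that of all detected features was -5.4e-05. The difference was over 0 in 54 of 81 members (66.7%), where 50% of all detected features were over 0, and in 49 of the 73 bright members (67.1%) against 2051 of the 3420 bright features. Of the 81 members, 1 was at least 1.2-fold apart and was higher, where 5.23% of all detected features were higher by as much and 7.14% lower, 12.4% together, and 1.81% of the bright ones were either. Beyond 2 spot errors lay 7 of 81 members, against 6.06% of all detected features. The interquartile range with Slpi was 0.13 over the bright members and 0.11 over the bright features. Both comparisons use the same Empty vector array, so an error of that array enters both.

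The direct comparison of the Mst1r with the Slpi vector gave a median of -0.10 over the members and -0.02 over all detected features. The value was under 0 in 68 of 81 members (84.0%), where 52.7% of all detected features were, and in 63 of the 73 bright members (86.3%) against 65.3% of bright features. At 1.2-fold, Cox7b2 was higher and 8 members were lower, which were Atp5d, Atp5j2, Atp5k, Cox6b1, Cox7a1, Ndufb2, Ndufb8 and Uqcr11, where 17% of all detected features were higher and 13.7% lower, 30.7% together, and 13% of the bright ones were either. Beyond 2 spot errors lay 17 of 81 members, against 21.9% of all detected features.

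**Figure D2:**
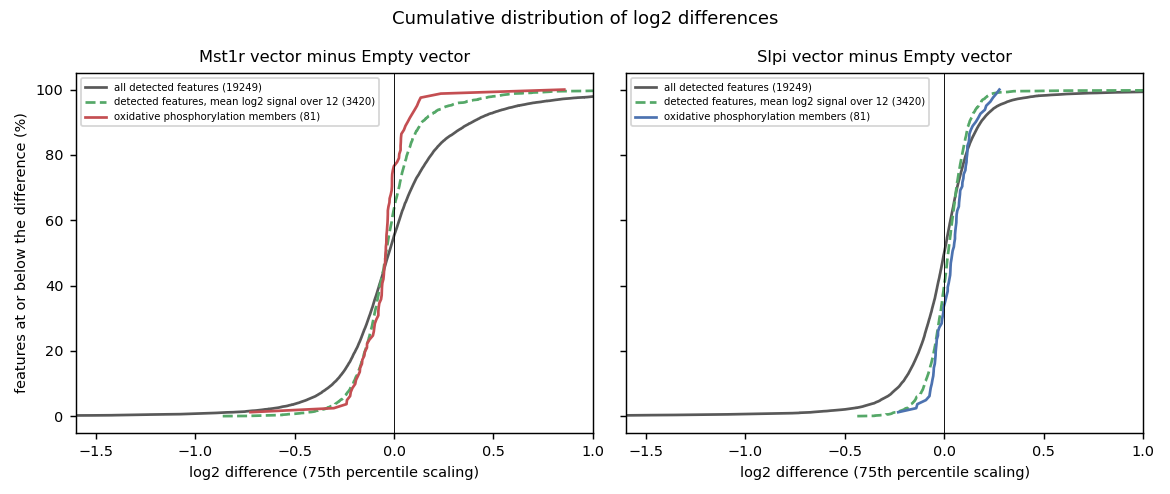
Cumulative percentage of features (y axis) at or below a log2 difference (x axis, after 75th percentile scaling) for the Mst1r vector (left) and the Slpi vector (right) against the Empty vector, for all 19249 detected features, the 3420 with a mean log2 signal over 12 and the 81 detected members; values beyond the x limits are not shown. The member curves are steep and close to that of the bright features, with medians of -0.04 and 0.04.

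The size of these shifts depended on how the arrays were scaled, and their sign did too. The Slpi median was -0.04 without scaling, 0.21 with median scaling and -0.18 when the arrays were set to equal spike-in signals, and the Mst1r median ranged from -0.27 to -0.01 under the alternatives that changed the scaling. Of the 38 named members with a difference, the sign turned under at least 1 alternative for 15 with Mst1r and 33 with Slpi. Relative to the median of all detected features, the members lay at -0.02 with Mst1r, 0.04 with Slpi and -0.08 for Mst1r minus Slpi. A scaling that subtracts 1 value per array shifts members and all features alike, so it cannot change these distances. With quantile normalization these values were 0.00066, 0.02 and -0.05, and with another background correction (normexp) they were -0.07, 0.01 and -0.12. At matched brightness on the 75th percentile scale the medians lay closer. Those of the 73 bright members were -0.04 with Mst1r, 0.04 with Slpi and -0.10 for Mst1r minus Slpi. Those of the 3420 bright features were -0.04, 0.02 and -0.06. The spike-in probes themselves, added in equal amount, differed after 75th percentile scaling by 0.10 with Mst1r and 0.23 with Slpi, which exceeds the members' medians.

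**Figure D3:**
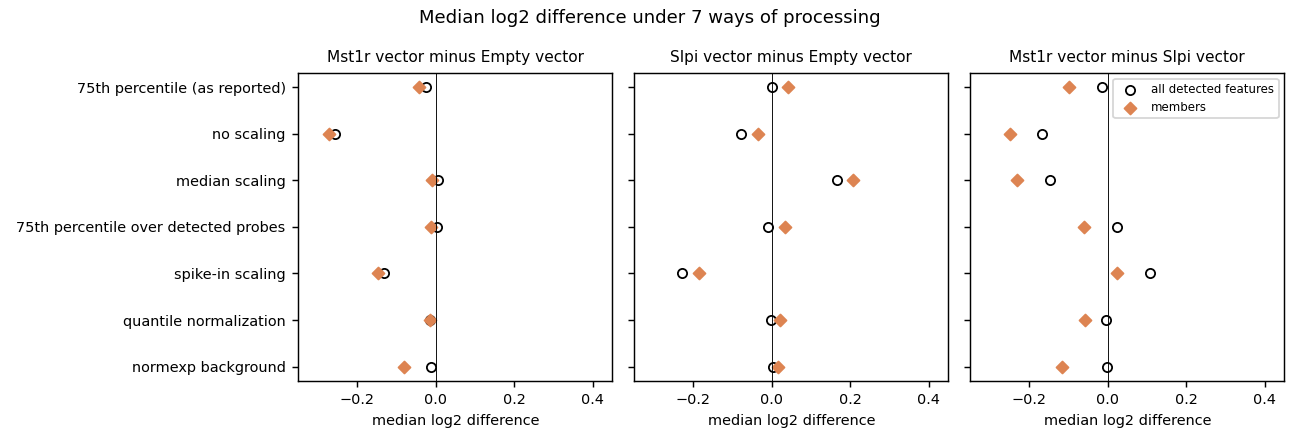
Median log2 difference (x axis) of the 81 detected members (diamonds) and of all detected features (open circles) under 7 ways of processing (y axis) in the 3 comparisons. Both medians move together when the scaling changes, and with Slpi the members run from -0.18 (spike-in scaling) to 0.21 (median scaling).

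Complex I, which oxidises NADH, had 36 detected members with signals from 1019 to 51789. Its median log2 difference was -0.04 with Mst1r, with 28 of 36 members under 0, and 0.04 with Slpi, with 25 of 36 over 0. Ndufb2, an accessory subunit of the membrane arm, was the member that stood furthest below the others. Its signal was 12582 with the Empty vector, 6497 with the Mst1r vector and 11370 with the Slpi vector. The Mst1r array was low, while the other two were close, and the log2 difference from the Empty vector was -0.72 ± 0.14 with Mst1r and -0.07 ± 0.14 with Slpi. With Mst1r it lay between -0.95 and -0.69 under all alternatives that gave a value. Ndufb2 was measured by a single probe printed on 1 spot, and no other probe of the gene was matched. Its promoter (chr6:39592315-39592614, plus strand) held 14 CpG dinucleotides, in capitals, and none of the 3 motifs.
Ndufb2: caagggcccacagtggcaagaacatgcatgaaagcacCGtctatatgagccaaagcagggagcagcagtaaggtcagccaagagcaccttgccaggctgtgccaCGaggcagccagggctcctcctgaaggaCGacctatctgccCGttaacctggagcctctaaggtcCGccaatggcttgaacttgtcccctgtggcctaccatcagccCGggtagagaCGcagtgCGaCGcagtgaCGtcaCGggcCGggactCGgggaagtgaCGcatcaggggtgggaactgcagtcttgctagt

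Ndufa11, another accessory subunit of the membrane arm, was the next lowest in complex I with Mst1r. Its signal was 3445, 2380 and 3145 with the Empty, Mst1r and Slpi vectors, and the log2 differences were -0.30 ± 0.12 with Mst1r and -0.05 ± 0.12 with Slpi. Ndufv2, a core subunit that carries an iron-sulfur cluster, had signals of 15785, 11541 and 14233 and differed by -0.22 ± 0.14 with Mst1r. That is within 2 spot errors. Ndufb8, an accessory subunit often used as a marker of assembled complex I, had signals of 22496, 18663 and 25032. It differed by -0.04 ± 0.08 with Mst1r and by 0.23 ± 0.08 with Slpi, so that the Mst1r array lay at -0.27 ± 0.08 from the Slpi array, but with spike-in scaling the Slpi difference was 0.0049 and the difference between the vectors -0.15. Ndufb11, a further membrane-arm accessory subunit, was 25658, 22935 and 28143, with 0.07 ± 0.08 and 0.21 ± 0.08, but with spike-in scaling its Slpi difference was -0.02. Other core subunits moved little. Ndufs1, which carries several iron-sulfur clusters, was at 15053, 12738 and 13881, with differences of -0.01 ± 0.14 and -0.04 ± 0.14. Ndufv1, which binds NADH, was at 21034, 17581 and 20971, with -0.03 ± 0.08 and 0.07 ± 0.08. Ndufa10, an accessory subunit, was the lowest of complex I with Slpi at -0.07 ± 0.11, from 16807 with the Empty vector and 15124 with the Slpi vector, after 13304 with Mst1r.

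Complex II, succinate dehydrogenase, which also works in the tricarboxylic acid cycle, had the lowest median with Mst1r. All 4 subunits were under 0 with Mst1r, with a median of -0.17, and none lay beyond 2 spot errors. With Slpi the median was -0.06 and 3 of 4 were under 0. Sdhc, a membrane anchor, was at 5981, 4326 and 5438 with the Empty, Mst1r and Slpi vectors, and the log2 difference was -0.24 ± 0.14 with Mst1r and -0.06 ± 0.14 with Slpi. Sdhd, the other anchor, was at 11018, 8342 and 10046, with -0.17 ± 0.14 and -0.06 ± 0.14. Sdha, the flavoprotein that binds succinate, was at 14277, 10796 and 12266, with -0.17 ± 0.14 and -0.14 ± 0.14. Sdhb, the iron-sulfur subunit, was at 17880, 14627 and 17588, with -0.06 ± 0.11 and 0.05 ± 0.08. The Empty vector array was the highest and the Mst1r array the lowest for each of the 4 genes before scaling, by the brightest probe. Over all detected features the unscaled medians were also under 0, at -0.26 with Mst1r, -0.08 with Slpi and -0.17 for Mst1r minus Slpi. Of the 81 detected members, 2 were over 0 with Mst1r without scaling.

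Complex III, which passes electrons from coenzyme Q to cytochrome c, had 9 detected members with signals from 8769 to 51269. The median was -0.10 with Mst1r, with 7 of 9 under 0, and 0.06 with Slpi, with 5 of 9 over 0. Cyc1, cytochrome c1, was at 23179, 17085 and 21248 with the Empty, Mst1r and Slpi vectors, and differed by -0.21 ± 0.08 with Mst1r and -0.05 ± 0.08 with Slpi. Uqcr10, a small accessory subunit, was at 39714, 29101 and 37443, with -0.22 ± 0.08 and -0.01 ± 0.08. These were the members of complex III beyond 2 spot errors with Mst1r by their brightest probe, but a second detected probe of Uqcr10, at 7108, 5978 and 7495, gave -0.02 ± 0.14 with Mst1r and 0.15 ± 0.14 with Slpi. Uqcr11, another small subunit, was at 21457, 16371 and 22304, with -0.16 ± 0.11 and 0.13 ± 0.08, which put the Mst1r array at -0.29 ± 0.11 from the Slpi array. Uqcrfs1, the Rieske iron-sulfur protein, went the other way. Its signal was 10867, 9157 and 8769, the lowest being with Slpi, and the log2 difference was -0.02 ± 0.14 with Mst1r and -0.23 ± 0.14 with Slpi, the lowest Slpi difference of the 81 members. The core proteins gave small differences. Uqcrc1 was at 11300, 9228 and 11291, with -0.06 ± 0.14 and 0.08 ± 0.14, and Uqcrc2 was at 18249, 15820 and 16218, with 0.02 ± 0.11 and -0.09 ± 0.11.

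Complex IV, cytochrome c oxidase, held the widest range of detection, because the rule took in its tissue isoforms. Of 17 members, 14 were detected, with a median of -0.03 with Mst1r (9 of 14 under 0) and 0.05 with Slpi (10 of 14 over 0). Each isoform pair is described with the form of most tissues first. Cox4i1, the largest nuclear-encoded subunit, was at 71931, 58584 and 66114 with the Empty, Mst1r and Slpi vectors, with log2 differences of -0.07 ± 0.08 and -0.04 ± 0.08. Cox4i2, its form in lung, was at 725, 608 and 670, with -0.02 ± 0.15 and -0.04 ± 0.15. Neither member of this pair moved beyond the spot error. Cox7a2 was at 13472, 10371 and 12872, with -0.15 ± 0.14 and 0.01 ± 0.14. Cox7a1, the form of heart and skeletal muscle, was at 248, 185 and 282, with -0.19 ± 0.17 with Mst1r and 0.26 ± 0.16 with Slpi. The difference of Mst1r from Slpi was -0.45 ± 0.16, and the probe lay in row 22 of 384. Control spots in that part of the array, described with Cox7b2 below, reached 207, 289 and 481 with the Empty, Mst1r and Slpi vectors. The Cox7a1 signals with Mst1r and Slpi are in the range of those control spots, while that with the Empty vector is above it. The part of such spots in the Cox7a1 differences was not tested. The promoters of Cox7a2 and Cox7a1 held 20 and 7 CpG dinucleotides.

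Cox7b2, a paralog of Cox7b known from testis, was the member with the highest log2 difference with Mst1r. Its signal was 181 with the Empty vector, 280 with the Mst1r vector and 156 with the Slpi vector, so the Mst1r array was high and the other two were alike. The log2 difference was 0.86 ± 0.16 with Mst1r and -0.13 ± 0.17 with Slpi, and it was 0.99 ± 0.16 between Mst1r and Slpi. The probe was 1 spot in row 107. In rows 1 to 128 of the array, spots of control probes with no target in the samples, taken as those with a median at background, gave a signal over 50 on 25 of 934 spots with the Empty vector, 37 of 922 with Mst1r and 26 of 922 with Slpi, with a highest signal of 207, 289 and 481. In the other rows this was 0 of 1754, 2 of 1731 and 1 of 1731. The Cox7b2 signal is in the range of those control spots, and their part in the result was not tested. The partner Cox7b was at 17404, 14088 and 18003, with -0.07 ± 0.11 and 0.13 ± 0.08, and its promoter held 5 CpG dinucleotides against 10 for Cox7b2.

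Cox6b1, a subunit that faces the intermembrane space, was at 3600, 2599 and 3677 with the Empty, Mst1r and Slpi vectors. Its log2 difference was -0.24 ± 0.12 with Mst1r, which lay 2 spot errors from 0, and 0.11 ± 0.12 with Slpi, and the Mst1r array was at -0.35 ± 0.12 from the Slpi array. Cox6b2, its form in testis, was at 73.4, 73.6 and 73.5. Since the arrays were scaled, these equal signals gave 0.23 ± 0.17 with Mst1r and 0.08 ± 0.17 with Slpi. Cox6a2, the form of subunit VIa in heart and skeletal muscle, was at 17.2, 62.9 and 25.3, and was not well above background with the Empty vector. Against the lowest signal that counted as well above background there, its scaled signal was higher by at least 3.90-fold with Mst1r and at least 1.41-fold with Slpi, each from 1 spot in row 160. The muscle markers Myh1 and Ckm were at background throughout. Acta1, skeletal actin, was at 109, 4.02 and 11.2, and was well above background with the Empty vector only. The Acta1 probe lay in row 10, and its signal with the Empty vector is in the range of the control spots described for Cox7b2. The part of such spots in the Acta1 value was not tested. Of the testis markers Prm1, Tnp1 and Ldhc, 2 of 3 were detected. Prm1 was at 313, 228 and 212, Ldhc was at 34.7, 85.2 and 25.5, and their part in the Cox7b2 and Cox6b2 values was not tested. The Ldhc probe lay in row 70, and its signals are also in the range of those control spots. Cox8c, a form of testis, gave background signals of 4.27, 4.23 and 3.91. Cox5a, a subunit with no such isoform, was at 23382, 21591 and 22555, with 0.12 ± 0.08 and 0.03 ± 0.08.

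Ndufa4, first assigned to complex I and now to complex IV, was at 17194, 14340 and 15783, with log2 differences of -0.03 ± 0.11 with Mst1r and -0.05 ± 0.11 with Slpi. Its paralog Ndufa4l2, known for induction by hypoxia, gave background signals of 4.98, 9.90 and 5.27.

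Complex V, the ATP synthase, had 17 detected members with signals from 6586 to 110609. The median was -0.04 with Mst1r, with 13 of 17 under 0, and 0.06 with Slpi, with 13 of 17 over 0. The genes of the catalytic head and its central stalk lay over 0 with Slpi on this scale. Atp5a1, the alpha subunit, was at 47611, 41511 and 47064 with the Empty, Mst1r and Slpi vectors, with 0.03 ± 0.08 and 0.06 ± 0.08. Atp5b, the catalytic beta subunit, was at 103681, 94160 and 110609, with 0.09 ± 0.08 with Mst1r and 0.17 ± 0.08 with Slpi, the latter being -0.06 with spike-in scaling. Atp5d, the delta subunit of the central stalk, was at 8263, 6586 and 9280, with -0.10 ± 0.14 with Mst1r and 0.25 ± 0.14 with Slpi, and -0.34 ± 0.14 between Mst1r and Slpi. Atp5e, the epsilon subunit of the same stalk, was at 14019, 13020 and 15307, with 0.12 ± 0.14 and 0.21 ± 0.14. Of these head and stalk genes only Atp5b was beyond 2 spot errors from the Empty vector. In the membrane part, Atp5k and Atp5j2, small subunits e and f, lay apart between the vectors. Atp5k was at 21943, 16488 and 22963, with -0.18 ± 0.08, 0.14 ± 0.08 and, for Mst1r minus Slpi, -0.33 ± 0.08. Atp5j2 was at 27419, 20890 and 28091, with -0.16 ± 0.08, 0.11 ± 0.08 and -0.28 ± 0.08. The c subunit of the rotor is made from 3 genes with the same mature protein. Atp5g1 was at 39367, 30794 and 36249, with -0.12 ± 0.08 and -0.04 ± 0.08. Atp5g2, printed on 10 spots and so known with a smaller error, was at 65581, 54441 and 64877, with -0.04 ± 0.03 and 0.06 ± 0.03. Atp5g3 was at 51738, 44550 and 47577, with 0.01 ± 0.08 and -0.04 ± 0.08. The 3 genes thus stayed within a narrow range, and the sign of the Atp5g2 difference with Slpi turned with the scaling.

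**Figure D4:**
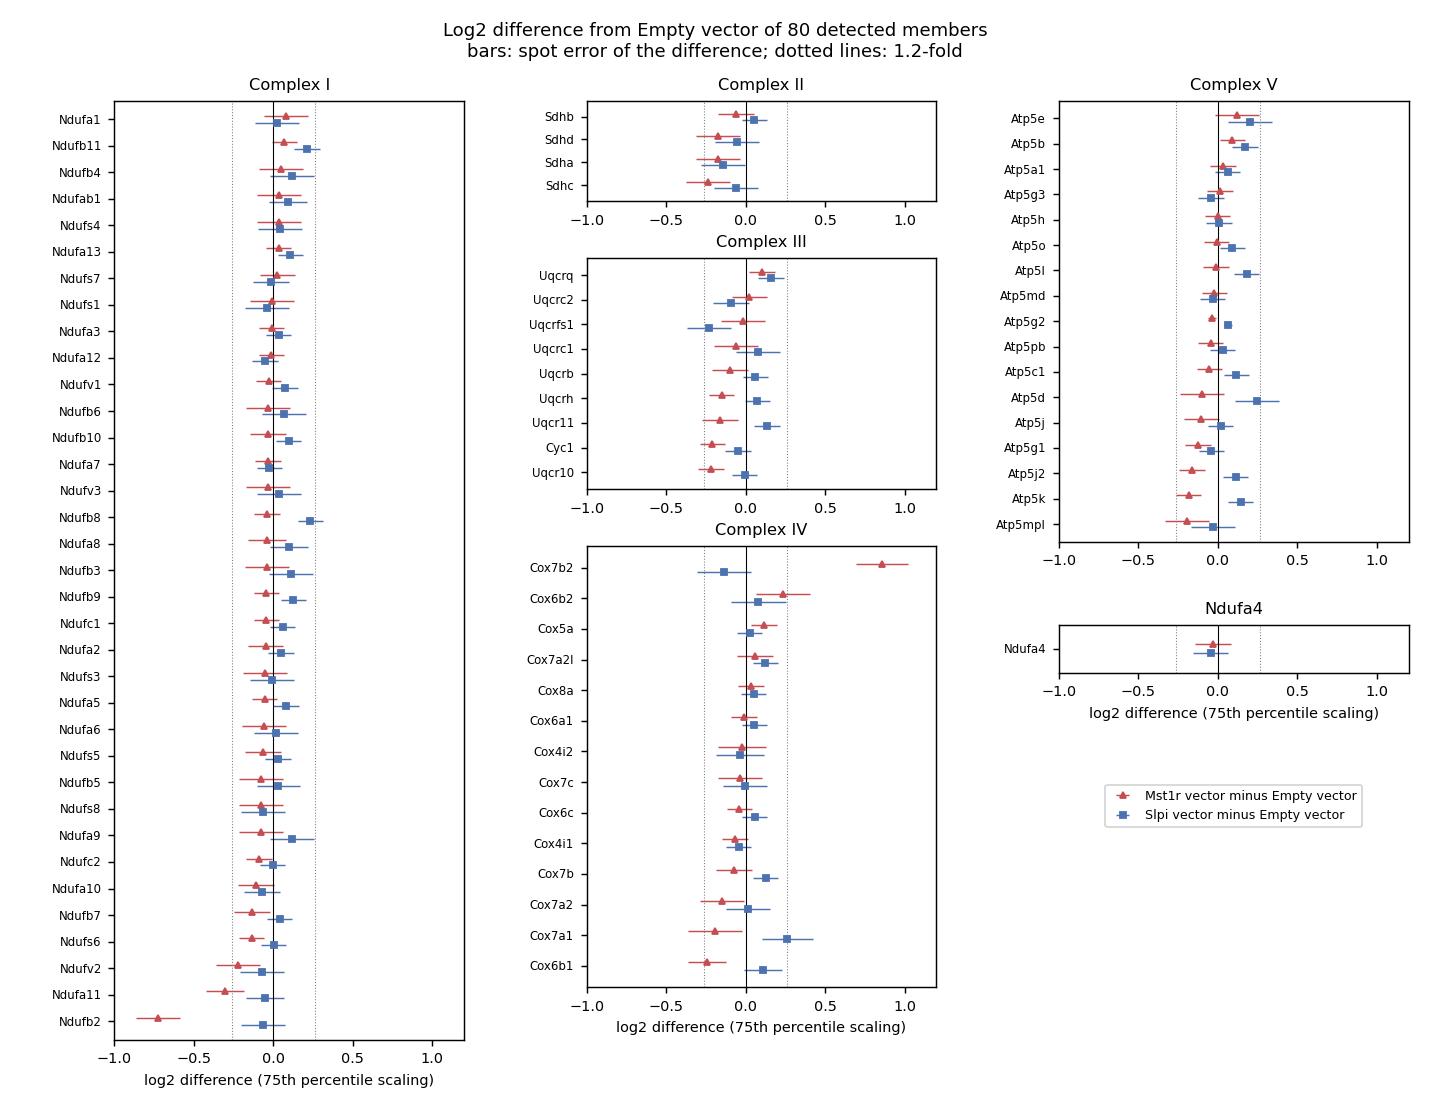
Log2 difference from the Empty vector (x axis, after 75th percentile scaling) of 80 of the 81 detected members by complex, for the Mst1r vector (triangles) and the Slpi vector (squares), in order of the Mst1r difference; bars are the spot error of the difference and dotted lines mark 1.2-fold. Most points lie between the dotted lines, with Ndufb2 (-0.72) and Ndufa11 (-0.30) below and Cox7b2 (0.86) above them with Mst1r.

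Where a gene had several detected probes, the choice of probe changed the value with Mst1r in 1 direction. Of 17 members with 19 further detected probes, the further probe gave a lower Mst1r difference than the brightest one in 17 of 19 cases, against 56.9% of such probes over all named genes. The median was -0.12 over the further probes and -0.03 over the brightest. With Slpi 10 of 19 were lower, and for Mst1r minus Slpi 14 of 19 were. No probe of a member was more than 0.5 from the brightest in any comparison, where 7.34%, 5.57% and 7.10% of such probes over all named genes were. Atp5b shows the pattern with 3 probes, whose Mst1r differences were 0.09 ± 0.08, -0.09 ± 0.08 and -0.25 ± 0.13 from the brightest to the dimmest, and whose Slpi differences were 0.17, 0.15 and 0.12. Sdha gave -0.17 ± 0.14 and -0.28 ± 0.12 with Mst1r, but -0.14 ± 0.14 and 0.15 ± 0.12 with Slpi. Sdhb gave -0.06 ± 0.11 and -0.27 ± 0.13 with Mst1r. Uqcr10 went against the pattern with Mst1r, with -0.22 ± 0.08 by the brightest probe and -0.02 ± 0.14 by the other, and Ndufb5 gave -0.08 and -0.07. The further probes were dimmer by definition, and whether the signal level or the position in the transcript goes with the difference was not tested.

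**Figure D5:**
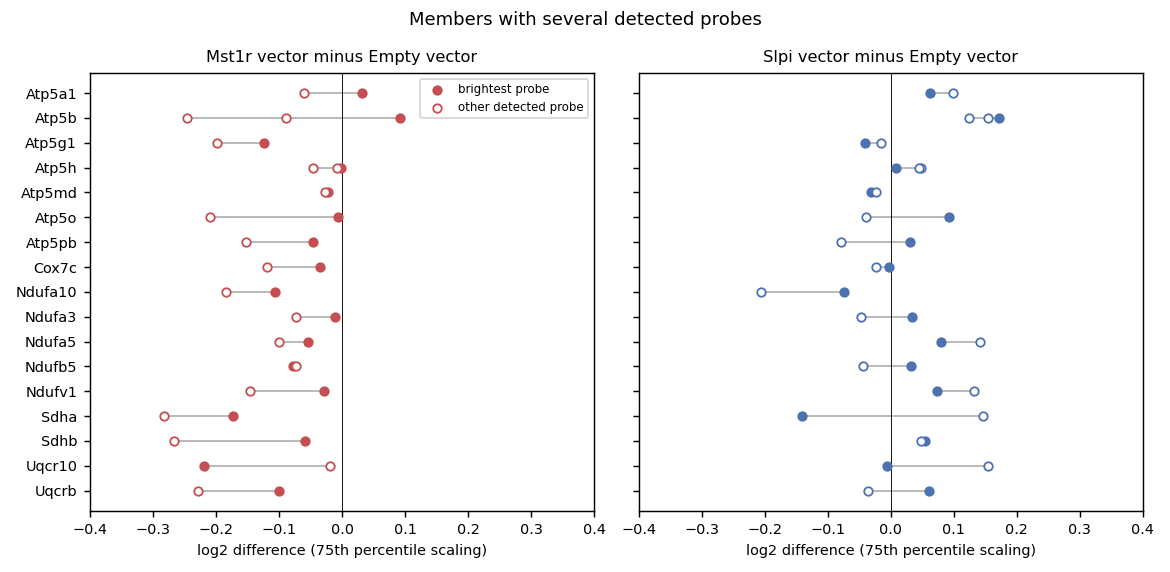
Log2 difference from the Empty vector (x axis, after 75th percentile scaling) of each detected probe for the 17 members with several, with the brightest probe filled and the others open, for the Mst1r vector (left) and the Slpi vector (right). With Mst1r the open points lie left of the filled point in 17 of 19 cases, and with Slpi in 10 of 19.

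Position on the array was also examined, since 27 of the 81 detected members lay in its rows 1 to 128. Without those rows, 56 members remained by their probes elsewhere, with medians of -0.04 with Mst1r, 0.03 with Slpi and -0.08 for Mst1r minus Slpi. No member was then at least 1.2-fold higher with either vector, and Ndufb2 and Ndufa11 were still lower with Mst1r.

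Other genes of the pathway are given from lists for comparison. Their counts are to be read against all detected features, of which 55.4% were under 0 with Mst1r and 50% over 0 with Slpi. Among the 3420 bright features, 63.8% were under 0 with Mst1r and 2051 were over 0 with Slpi. The lists were not compared at matched brightness. The factors that assemble the complexes, of which 47 of 48 were detected, had a median of -0.08 with Mst1r (36 of 47 under 0) and 0.02 with Slpi. At least 1.2-fold lower with Mst1r were 10 of the 47 assembly factors, where 12.9% of all detected features were. Timmdc1, a complex I assembly factor, was at 1839, 1139 and 1762 with the Empty, Mst1r and Slpi vectors, a difference of -0.46 ± 0.12 with Mst1r. Coa5, an assembly factor of complex IV, was at 1631, 1285 and 1862, a difference of 0.27 ± 0.12 with Slpi. The subunits themselves had 2 of 81 lower by this measure. Electron carriers and the enzymes that hand electrons to coenzyme Q, of which 6 of 7 were detected, had medians of -0.10 with Mst1r (5 of 6 under 0) and 0.08 with Slpi (6 of 6 over 0). Dhodh, which makes orotate for pyrimidines, was at 782, 608 and 787, with -0.13 ± 0.15 with Mst1r. Etfdh, which passes electrons from fatty acid oxidation, was at 1629, 1291 and 1692, with 0.13 ± 0.12 with Slpi. None of the 6 was 1.2-fold apart.

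Of the mitochondrial ribosomal proteins, which translate the mitochondrially encoded subunits, 78 of 84 symbols had a detected probe. Their median was -0.08 with Mst1r, with 60 of 78 under 0 where 55.4% of all detected features were, and 0.00019 with Slpi. Mrpl35 was dim, at 36.3, 41.7 and 33.1, with 0.43 ± 0.33 with Mst1r, and Mrpl32 was at 3448, 2632 and 2661, with -0.30 ± 0.12 with Slpi. Enzymes of the tricarboxylic acid cycle (14 of 14 detected) had medians of -0.03 and 0.0043, and none was 1.2-fold apart with either vector. Sucla2, a subunit of succinyl-CoA ligase, was at 543, 544 and 515 with 0.23 ± 0.15 with Mst1r, and Fh1, fumarate hydratase, was at 8147, 6832 and 9072 with 0.23 ± 0.14 with Slpi. Regulators of mitochondrial genes (16 of 16 detected) had medians of -0.09 and -0.02. Mterf1a, a mitochondrial transcription termination factor, had the widest difference of that list with both vectors, at 188, 110 and 151, with -0.54 ± 0.17 with Mst1r and -0.24 ± 0.17 with Slpi.

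Coenzyme Q synthesis genes (12 of 13 detected) had medians of -0.05 with Mst1r and 0.02 with Slpi. Coq4 was at 1161, 761 and 965, with -0.38 ± 0.14 with Mst1r, and Pdss2, which helps make the side chain, was at 234, 173 and 170, with -0.38 ± 0.17 with Slpi. Import and inner membrane genes (17 of 17 detected) had medians of -0.10, with 14 of 17 under 0, and 0.06, with 10 of 17 over 0. Chchd3, a protein of the cristae junctions, was at 4914, 4876 and 5160, with 0.22 ± 0.14 with Mst1r, and Apool, another such protein, was at 890, 715 and 693, with -0.28 ± 0.15 with Slpi. All values of these lists are on the 75th percentile scale, on which the median over all detected features was -0.03 with Mst1r. On that scale 55.4% of all detected features were under 0 with Mst1r, and 50% were over 0 with Slpi. None of the 13 subunits encoded by mitochondrial DNA was matched to a probe by accession, and they were not analysed here.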

How the data were processed

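Single-colour arrays (SurePrint G3 Mouse) of 3 transfected Hepa1c1c7 samples, 1 per group, were analysed. The deposited files held spot intensities that the authors extracted with Agilent Feature Extraction 12.0.3.1 per the labels, and the processed signal is background-subtracted, detrended and unscaled. All 3 arrays shared 1 slide and scan, so group and place on the slide cannot be told apart. A deposited series table gave the same intensity, linear and unscaled, with medians of 18.4, 15.34 and 15.54, and 99.9% of its values lay within 0.01 (log2) of the mean over a probe's spots.

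Control spots and spots flagged as outliers were left out, spots of a probe were averaged on the log2 scale, and the 75th percentile over 56605 probes was subtracted. Probes were named through accessions and RefSeq (GRCm38.p6, names and promoters only), which matched 32994 of them, and 45616 features resulted, 19249 of them detected. The array design was annotated on another build and none of its coordinates was used. Spot errors came from probes printed at least 10 times. With 1 array per group no test was possible, and the number of arrays limits the precision. Nothing in the labels ties the arrays to separate cultures. Where a probe was below background on 1 array, the bound used the lowest signal well above background there. The members and lists were chosen with earlier results of these data known. Genes named were the 5 highest and 5 lowest members with each vector, members at least 1.2-fold apart, undetected members, isoform pairs, core subunits and, per list, the member furthest from 0 with each vector. Sdhd, Uqcr10 and the probes of Sdha, Sdhb and Atp5b were named after their values were seen. The values of 1 member are not reported here, and it enters counts and medians only. Alternatives were other scalings, normexp background with an offset of 50, quantile normalization, the deposited table, other probe rules, inclusion of members at background and leaving out rows 1 to 128. The scripts were tested on simulated data (Python 3.11.15, numpy 2.4.6, pandas 2.3.3, matplotlib 3.10.9, R 4.3.3, limma 3.58.1).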

Additional observations from a re-analysis of the deposited data

How the results depend on the processing

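With 1 array per group, the medians have no error of their own between cultures, and no replicate could be left out. No paired analysis was possible because each group held 1 array. Comparisons are written as M (Mst1r minus Empty), S (Slpi minus Empty) and MS (Mst1r minus Slpi), and values for several are in that order. The main medians were -0.04, 0.04 and -0.10. Without scaling, the medians were -0.27 (M) and -0.25 (MS), the members over 0 were 2, 27 and 3, and those 1.2-fold apart were 49 and 35 (M and MS). With median scaling, the medians were 0.21 (S) and -0.23 (MS), the members over 0 were 32 and 3 (M and MS), and those 1.2-fold apart were 22 and 31 (S and MS). With the percentile over detected probes, 30 and 23 members were over 0 (M and MS) and 1 was 2-fold apart (MS). With spike-in scaling, the medians were -0.15, -0.18 and 0.025, the members over 0 were 5, 4 and 50, those 1.2-fold apart were 15, 19 and 5, and 1 was 2-fold apart (MS). The median of all detected features was -0.26, -0.08 and -0.17 without scaling. It was 0.01, 0.17 and -0.15 with median scaling, and -0.13, -0.23 and 0.11 with spike-in scaling. The members moved by the same amount, since each of these settings differs from the main scaling by 1 value per array. With quantile normalization, 34 and 23 members were over 0 (M and MS) and 0 were 1.2-fold apart with Slpi. With normexp, 7 were 1.2-fold apart with Mst1r. With members at background included (85 in all), 6 and 2 were 1.2-fold apart (M and S), and 2 were 2-fold apart in M and in MS, namely Cox6a2 and Ndufa4l2. Ndufa4l2 was at background on every array, and Cox6a2 was so with the Empty vector only. The Cox6a2 difference in MS, between arrays where it was well above background, was 1.47 ± 0.33. Without rows 1 to 128, 0 and 5 were 1.2-fold apart (S and MS), and 34 of 56 were over 0 with Slpi. The dimmest detected probe, an alternative chosen after seeing the data, gave 5 members 1.2-fold apart with Mst1r. Of 38 differences of single named members in each comparison, 15 (M), 33 (S) and 18 (MS) turned sign under at least 1 alternative. Among those beyond 2 spot errors, Atp5g2 with Slpi was -0.016 without scaling and -0.16 with spike-in scaling, and 0.022 for Mst1r minus Slpi with spike-in scaling, while Atp5b and Ndufb11 with Slpi were -0.056 and -0.016 with spike-in scaling. The cause was not tested, beyond the common shift of each scaling. The medians were -0.04, 0.04 and -0.10 with the deposited table and -0.05, 0.04 and -0.10 with the mean over detected probes. Signal over background limits the dim isoforms, and the number of arrays limits the rest.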
